A study of Mus musculus with 6 samples.

Results

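Selectins and immunoglobulin-type adhesion molecules were examined in resident macrophages of the mouse peritoneal cavity with and without a conditional deletion of Gata6. The set holds 9 genes chosen by symbol: P-selectin (Selp), its ligand PSGL-1 (Selplg), the immunoglobulin-type molecules Icam1, Icam2, Vcam1, Pecam1 and Alcam, and the glycoproteins Cd44 and Cd24a. The array carries 22 probe sets annotated to 1 of these symbols alone, out of 45037 probe sets and 18193 gene symbols. In the Gata6-KO group, macrophages came from mice with floxed, conditionally deleted Gata6; in the Gata6-WT group they came from wild type mice. Each group has 3 arrays, each measuring total RNA of cells pooled from 2 to 3 animals 7 weeks old. In both groups the cells were gated on high CD11b with little or no MHC class II. The submitters describe biological replicates of sex-matched mice, and name neither the Cre line, nor the cells in which it acts, nor which part of Gata6 is removed.

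Leukocytes first tether to a vessel wall through selectins, lectins that bind sialylated and fucosylated sugars on carriers such as PSGL-1, and then hold firmly through integrins that bind immunoglobulin-type molecules such as ICAM-1, ICAM-2 and VCAM-1. P-selectin is best known from the storage granules of platelets and endothelial cells, and large peritoneal macrophages are known to express ICAM-2, which is used to sort them. CD44 is the main leukocyte receptor for hyaluronan, ALCAM binds CD6 on T cells, and CD24 is a small, heavily glycosylated protein held in the membrane by a lipid anchor that can serve as a P-selectin ligand.

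Array medians lay between 79.5 and 88.3 signal units, and log2 signals of 2 arrays correlated at r = 0.964 to 0.972 within a genotype and 0.930 to 0.951 across genotypes. Of the 3 Gata6 probe sets, 2 were lower in Gata6-KO, at 3497 ± 828 against 6372 ± 938 and at 180 ± 6.47 against 423 ± 76.6 (SD, n = 3 each), while the remaining one had 1758 ± 399 against 1775 ± 443, and where they lie in relation to the deletion was not examined. Replicate 1 of each genotype carried male-type sex-linked expression (Xist at 102 in Gata6-KO and 113 in Gata6-WT) and the other 4 arrays female-type (Xist at 12447 and 12927 in Gata6-KO and 11158 and 13749 in Gata6-WT), so values are also given within replicates 1 (1 array against 1, no test) and within replicates 2 and 3 (2 against 2). Of 10 markers of peritoneal macrophages, all bright enough to test, 5 were lower in Gata6-KO (Adgre1, Timd4, Fcgr1, Cd68 and Cd93), 1 was higher (Mertk) and 4 did not pass (Itgam, Csf1r, Cd14 and Lyz2). Over all genes 7.46% were lower and 5.61% higher. Cd68 and Mertk each passed in 1 of 6 fits with 1 array left out. Without limma's mean-variance trend Timd4, Cd68 and Mertk did not pass (limma adjusted p = 0.055, 0.14 and 0.13). Adgre1, which encodes F4/80, had 12149 ± 3204 in Gata6-KO and 43123 ± 3980 in Gata6-WT, and the summed signal of the 10 was 207403 to 223048 in Gata6-KO and 245279 to 284818 in Gata6-WT.

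Of the 9 adhesion genes, Selp and Cd24a fell most, about 8- to 13-fold and 8- to 9-fold at their probe sets, Selplg, Icam2 and the called probe sets of Alcam fell by less than 2-fold, and 1 probe set of Cd44 rose. Signals were taken to log2(signal + 16), a scale that understates changes of low signals, and compared with limma across 27022 probe sets above a signal of 47.5; a probe set was called at a Benjamini-Hochberg adjusted p under 0.05. Of the 22 probe sets 18 were bright enough to test: 10 were lower in Gata6-KO, 1 was higher and 7 did not pass. Over all probe sets tested, 5.67% were called lower and 5.12% higher, 10.8% in all. Groups did not overlap at 12 of the 18 on the low side and at 3 on the high side, against 16.3% and 14.8% of all probe sets, which makes 15 of 18 against 31.0%. The median log2 difference of the 18 was -0.62, beside -0.01 over all probe sets tested. Several probe sets share a gene, so these counts are not counts of independent measurements. The 9 genes were also chosen with earlier results of these data known. The shares over all probe sets and genes therefore give a scale only and no test of the set. By gene, with the brightest tested probe set standing for each, 5 of 8 were lower and 0 higher, against 7.46% and 5.61% of 12511 genes. The 3 genes that did not pass were Icam1, Vcam1 and Cd44, and Pecam1 was too dim to test. In the sorted bulk samples, fewer cells that express a gene and less RNA per cell cannot be told apart.

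**Figure D1:**
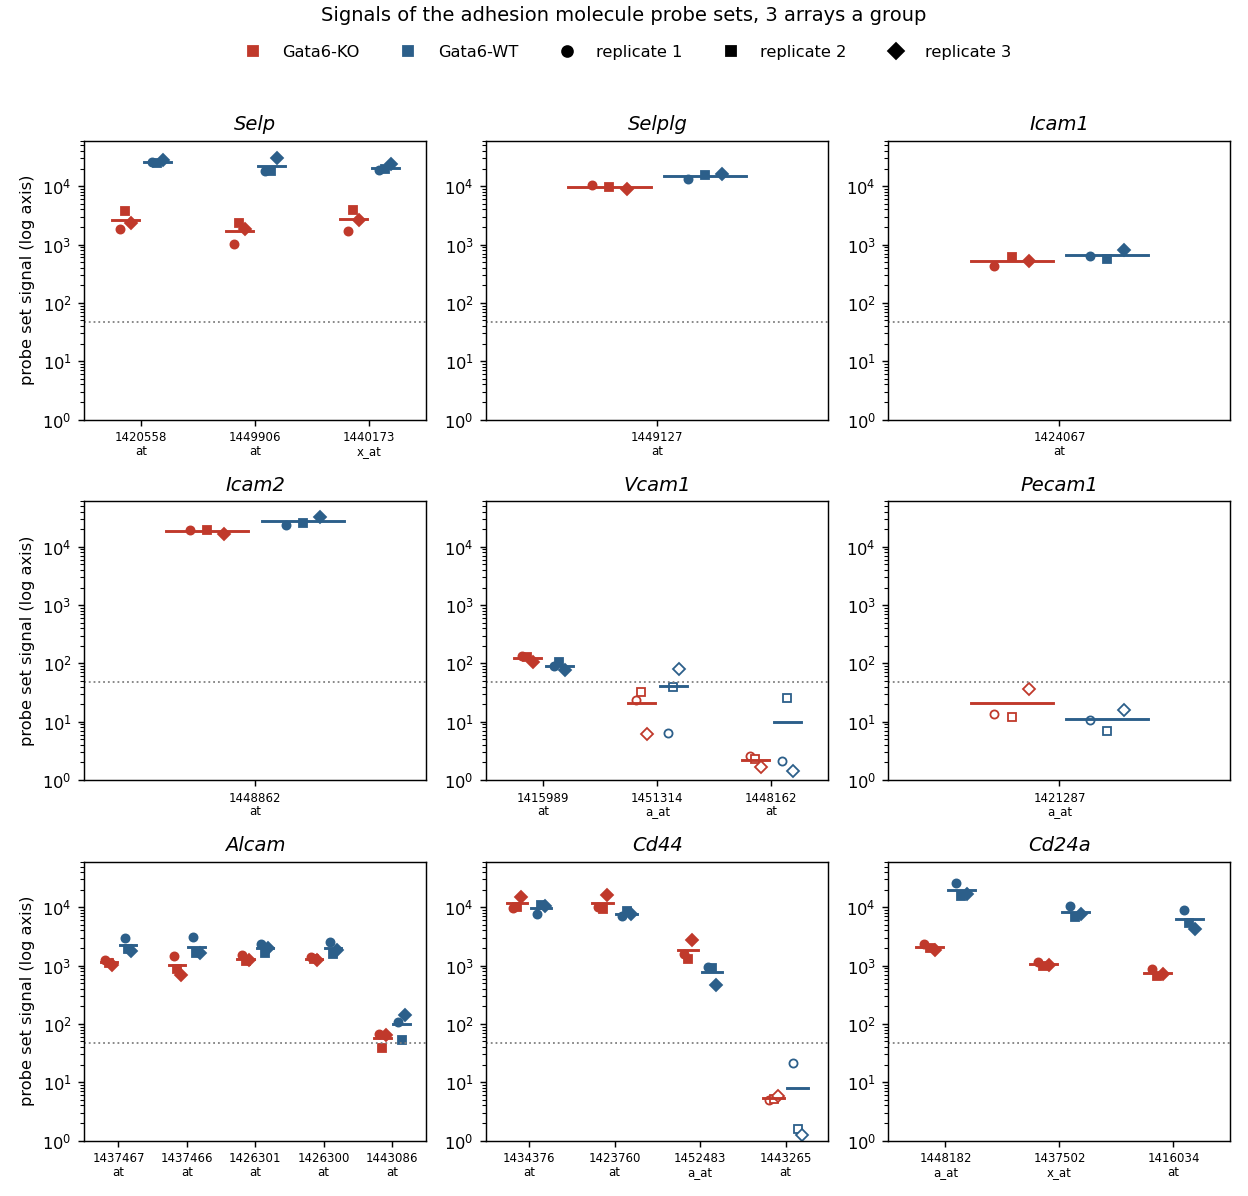
Probe set signal (log axis) of the 22 probe sets of the 9 adhesion genes in 3 Gata6-KO arrays (red, left) and 3 Gata6-WT arrays (blue, right). Symbols give the replicate number, bars the group means, open symbols probe sets that were not tested, and the dotted line the signal of 47.5. The Selp and Cd24a groups lie far apart on every probe set, whereas the Icam1 groups and those of Cd44 probe set 1434376_at overlap.

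P-selectin, the selectin of platelet and endothelial granules, was about an order of magnitude lower in Gata6-KO macrophages on all 3 of its probe sets. Probe set 1420558_at had signals of 1826, 3798 and 2371 in Gata6-KO replicates 1, 2 and 3, against 25576, 25367 and 28591 in Gata6-WT. Every Gata6-KO value lay far below every Gata6-WT value, and the difference was log2 -3.37 ± 0.22 (SE), 10.3-fold (limma adjusted p = 3.1e-05). Probe set 1449906_at had 1036, 2315 and 1869 in Gata6-KO, against 18012, 18431 and 29973 in Gata6-WT. It fell 12.9-fold (log2 -3.69 ± 0.29, limma adjusted p = 6.9e-05), and here 1 wild type array, replicate 3, stood above the other 2. Probe set 1440173_x_at, whose suffix marks probes that can also match other transcripts, had 1720, 3894 and 2643 in Gata6-KO, against 18904, 19637 and 23845 in Gata6-WT (7.89-fold, log2 -2.98 ± 0.25, limma adjusted p = 1.0e-04). Among the log2 differences of all 27022 probe sets tested, these ranked 32, 24 and 56 from the lowest.

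The remaining Selp signal differed among the Gata6-KO pools in the same way on each probe set: replicate 1 was lowest and replicate 2 highest. At 1420558_at the pools kept 6.89%, 14.3% and 8.94% of the wild type mean, at 1449906_at 4.68%, 10.5% and 8.44%, and at 1440173_x_at 8.27%, 18.7% and 12.7%. No Gata6-KO pool was near the dim end of the array, so the reduced Selp signal was still well within the measured range. Within replicates 1 the log2 differences were -3.80, -4.10 and -3.45 in the order of these probe sets, and within replicates 2 and 3 they were -3.16, -3.49 and -2.75. The limma interaction of sex-linked type and genotype passed for 0 of the 18 probe sets (smallest adjusted p = 1.00, 0 with an unadjusted p under 0.05), and with 1 array per genotype of one type this does not show that the types are alike. Platelets also carry P-selectin. Of 6 platelet and megakaryocyte markers tested, 0 passed the limma threshold; Pf4, platelet factor 4, had 42530 ± 5559 in Gata6-KO and 44155 ± 6725 in Gata6-WT (SD, n = 3 each), and the other 7 markers on the array summed to 687 to 732 in Gata6-KO and 830 to 902 in Gata6-WT. Among these Treml1 had 206, 152 and 66.1 in Gata6-KO, against 249, 265 and 222 in Gata6-WT, groups that did not overlap (log2 -0.84, limma adjusted p = 0.15). Ppbp and Gp9, 2 other genes of that list, were too dim to test. Most of the summed signal of that list came from Pf4, and which cells carried it was not tested. The part of platelets in the Selp values was not tested either.

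GATA factors bind short DNA sequences around the letters GATA, and the promoter table of RefSeq (build GRCm38.p6) holds entries for Selp, Icam1, Alcam and Cd44. The 250 bases before the start of Selp, which fell most, and of Cd44, which had the 1 probe set that rose, are shown 5′ to 3′ on the gene's strand, with GATA or its reverse complement TATC in capitals. The Selp window is chr1:164115014-164115263 on the plus strand and the Cd44 window chr2:102901666-102901915 on the minus strand.
Selp: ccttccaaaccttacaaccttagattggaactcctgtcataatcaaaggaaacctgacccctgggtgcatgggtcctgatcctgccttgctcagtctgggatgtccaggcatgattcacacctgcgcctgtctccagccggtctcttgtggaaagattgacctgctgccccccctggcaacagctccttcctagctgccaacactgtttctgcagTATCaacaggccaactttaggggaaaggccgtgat
Cd44: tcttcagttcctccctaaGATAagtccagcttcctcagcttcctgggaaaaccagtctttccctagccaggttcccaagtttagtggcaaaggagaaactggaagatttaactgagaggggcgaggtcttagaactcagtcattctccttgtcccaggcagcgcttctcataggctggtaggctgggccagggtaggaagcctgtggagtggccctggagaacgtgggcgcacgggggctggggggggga
Selp held 1 core, TATC, 35 bases before the start, and Cd44 held 1, GATA, 232 bases before it, while Icam1 and Alcam had 0. The 6-letter form, GATA with A or T before it and A or G after it, was searched on both strands; it contains the core and occurred once in Cd44, as AGATAA, and in 0 of the other 3 windows. Of all 32851 promoter windows of this length, 53.6% held the core and 26.5% a 6-letter form. These matches describe letters in a window and were not tested as binding sites.

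PSGL-1, the main leukocyte ligand of P-selectin, fell modestly. Selplg had 10409, 9564 and 9103 in Gata6-KO replicates 1, 2 and 3, against 13331, 15270 and 16122 in Gata6-WT. The groups were apart, and the difference was log2 -0.62 ± 0.11 (1.53-fold, limma adjusted p = 0.0068), with the call kept whichever array was left out and an adjusted p of 0.061 without limma's mean-variance trend. It was -0.36 within replicates 1 and -0.75 within replicates 2 and 3. Selectins bind PSGL-1 through sugars and sulfated tyrosines. Of 14 tested enzymes and transporters of that modification 1 fell and 0 rose at the brightest tested probe set of each (median log2 -0.10). Over all genes 7.46% were lower and 5.61% higher. St3gal6, counted as not passing, had 1 of its 3 tested probe sets called higher. The 1 that fell was Gcnt1, the core 2 branching enzyme of O-glycans, with 65.7, 50.4 and 50.7 in Gata6-KO against 350, 384 and 247 in Gata6-WT (4.74-fold, log2 -2.24 ± 0.24, limma adjusted p = 4.4e-04). The Gata6-KO signals of Gcnt1 lay at the level of the test filter, so the fold depends on the pseudocount (log2 -2.52 with 1 and -1.69 with 64). The fucosyltransferase gene Fut7, which finishes the selectin-binding sugar, had 167 ± 36.1 in Gata6-KO and 187 ± 11.8 in Gata6-WT (SD, n = 3 each; log2 -0.17, not past the threshold). The tyrosine sulfotransferase genes Tpst1 and Tpst2 had log2 differences of 0.28 and 0.25 and the sialyltransferase gene St3gal4 -0.60, none past the threshold. Sele, which encodes the endothelial E-selectin, was too dim to test. Of the other ligand carriers, Cd34, Glycam1 and Emcn were too dim to test, and Cd164 (log2 0.24) and Podxl (log2 -0.87) did not pass.

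Cd24a fell nearly as far as Selp on all 3 of its probe sets, with tight Gata6-KO values. Probe set 1448182_a_at had 2345, 2012 and 1822 in Gata6-KO replicates 1, 2 and 3, against 25698, 15649 and 17163 in Gata6-WT. Probe set 1437502_x_at had 1163, 969 and 1041 in Gata6-KO, against 10698, 6867 and 7737 in Gata6-WT. At 1416034_at the signals were 859, 665 and 709 in Gata6-KO, against 9064, 5329 and 4204 in Gata6-WT. Replicate 1 was the highest array of its group on each probe set in both genotypes, the reverse of Selp, where replicate 1 was the lowest Gata6-KO array. The log2 differences were -3.21 ± 0.18 (9.23-fold), -2.95 ± 0.16 (7.75-fold) and -2.96 ± 0.24 (7.80-fold), with limma adjusted p of 1.8e-05, 1.7e-05 and 9.9e-05. They ranked 43, 60 and 58 from the lowest among all 27022. Taken over the 3 pools, Gata6-KO kept 10.6%, 12.5% and 12.01% of the wild type mean on these probe sets. Within replicates 1 the log2 differences were -3.45, -3.18 and -3.38, and within replicates 2 and 3 -3.09, -2.84 and -2.76. CD24 is also found on B cells and red cell precursors. Of 4 B cell markers tested 0 passed, with a summed signal over 7 markers of 465 to 506 in Gata6-KO and 340 to 457 in Gata6-WT. Of 2 erythroid markers tested 0 passed, with sums over 4 markers of 322 to 400 and 273 to 346. Among other cell types, 1 of 2 tested markers of eosinophils and neutrophils was lower in Gata6-KO (S100a8, log2 -1.20, limma adjusted p = 0.029). Of 3 tested dendritic cell markers 1 was lower (Cd209a, log2 -2.17, limma adjusted p = 0.010). Siglech and Zbtb46, the other dendritic markers tested, lay higher without passing (log2 0.95 and 0.24). Elane, the other tested marker of eosinophils and neutrophils, did not pass at log2 -0.10. These cell type counts stand beside 7.46% lower and 5.61% higher over all genes. The part of any of these cells in the Cd24a values was not tested. Siglecg, which encodes a sialic acid-binding receptor for CD24, was too dim to test.

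The ICAM genes, whose proteins bind leukocyte integrins with the beta 2 chain, differed little between genotypes. Icam2 had 19621, 19003 and 16357 in Gata6-KO replicates 1, 2 and 3, against 23846, 25227 and 32304 in Gata6-WT. The groups did not overlap and the difference was log2 -0.56 ± 0.14 (1.47-fold, limma adjusted p = 0.029). The call depended on which arrays entered: leaving out Gata6-KO replicate 1, 2 or 3 gave adjusted p = 0.057, 0.075 and 0.11, leaving out Gata6-WT replicate 2 or 3 gave 0.065 and 0.058, and leaving out Gata6-WT replicate 1 kept the call (0.021), as did replicates 2 and 3 alone (0.039). Within replicates 1 the difference was -0.28 and within replicates 2 and 3 it was -0.69. The Icam2 signal in Gata6-KO was 67.6% of the wild type mean. Icam1, the inducible ICAM of inflamed cells, had 432, 623 and 527 in Gata6-KO, against 644, 566 and 807 in Gata6-WT. These ranges overlapped, and the difference of log2 -0.34 ± 0.18 did not pass (limma adjusted p = 0.29).

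Among the integrin subunits that bind these molecules, 4 of 10 tested fell and 0 rose (median log2 -0.36). Itgb2, the shared beta 2 chain, had 31331 ± 993 in Gata6-KO and 45913 ± 4129 in Gata6-WT (log2 -0.55 ± 0.10, limma adjusted p = 0.0095, and 0.0505 without Gata6-KO replicate 2). Its alpha partners Itgal, the LFA-1 chain that binds ICAMs, and Itgam, the CD11b chain on which the cells were gated, did not pass, at log2 -0.20 and 0.24. Itgb1, which pairs with the alpha 4 chain to bind VCAM-1, had 6654 ± 831 in Gata6-KO and 13610 ± 2001 in Gata6-WT (log2 -1.03 ± 0.13), and 2 of its 5 tested probe sets were called lower. Itgb7, the other partner of the alpha 4 chain, had 429 ± 114 in Gata6-KO and 1555 ± 329 in Gata6-WT (log2 -1.83 ± 0.21), while Itga4 itself did not pass (log2 -0.39). Itgb3, which can pair with the alpha V chain to bind PECAM-1, had 8.45, 5.70 and 30.2 in Gata6-KO, all below the signal of 47.5, against 482, 423 and 648 in Gata6-WT. It passed the filter through its wild type signal alone and so had to differ; the size of its log2 difference moved between -5.35 and -2.88 over the other fits and is not ranked. Apart from it, 3 of 9 tested subunits fell. Of 12 genes of integrin activation and cytoskeletal linkage 2 fell and 1 rose at the brightest tested probe set of each (median log2 -0.07). These counts of subunits and linkage genes stand beside 7.46% lower and 5.61% higher over all genes. Rap1a was called on 1 of its 2 tested probe sets. Genes counted as not passing also had calls: Tln1 on 1 of 3 tested probe sets and Rasgrp2 on 1 of 4, lower, and Rap1b on 1 of 3, higher. Cytip, an inhibitor of the beta 2 integrin activator cytohesin-1, had log2 -1.86 ± 0.21, vinculin (Vcl) -0.61 ± 0.11 and the small GTPase gene Rap1a 0.42 ± 0.09. The Rap1a call was lost without Gata6-KO replicate 2 or 3 or Gata6-WT replicate 2 (adjusted p = 0.080, 0.072 and 0.083).

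Alcam was lower in Gata6-KO on each of its probe sets, and its calls were less secure than those of Selp and Cd24a. Probe set 1437467_at had 1258, 1118 and 1027 in Gata6-KO replicates 1, 2 and 3, against 2954, 1917 and 1788 in Gata6-WT. It fell 1.90-fold (log2 -0.93 ± 0.19, limma adjusted p = 0.013, and 0.051 without Gata6-KO replicate 3). Probe set 1426301_at had 1524, 1177 and 1258 in Gata6-KO, against 2326, 1671 and 2015 in Gata6-WT, and fell 1.51-fold (log2 -0.59 ± 0.15, limma adjusted p = 0.038). In both the groups stood apart, with replicate 1 the highest array of each genotype. The call of 1426301_at was lost without Gata6-KO replicate 2 or 3 (adjusted p = 0.13 and 0.11) or without Gata6-WT replicate 1 or 3 (0.11 and 0.084). Probe sets 1426300_at and 1437466_at had non-overlapping groups and log2 differences of -0.57 ± 0.17 and -1.05 ± 0.30 that did not pass (limma adjusted p = 0.058 and 0.054). The dim probe set 1443086_at, with 38.7 to 66.9 in Gata6-KO and 52.9 to 145 in Gata6-WT, overlapped (log2 -0.63 ± 0.38, limma adjusted p = 0.35). The ALCAM receptor gene Cd6 was too dim to test.

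**Figure D2:**
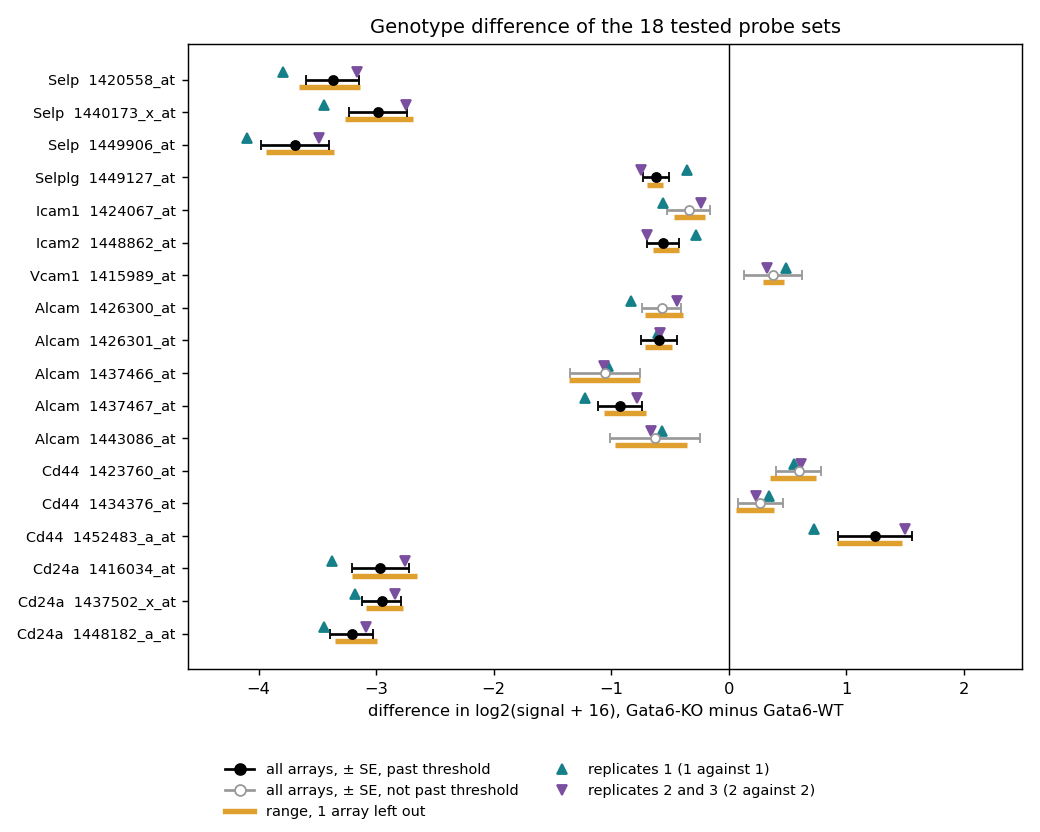
Difference in log2(signal + 16), Gata6-KO minus Gata6-WT, for the 18 tested probe sets. Circles with bars give the estimate ± SE over all 6 arrays, filled where the adjusted p was under 0.05; orange bars the range with 1 array left out; triangles the values within replicates 1 and within replicates 2 and 3. The 3 Selp and 3 Cd24a probe sets lie between -3.69 and -2.95, and the 3 Cd44 probe sets and Vcam1 lie above 0.

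Cd44 was the 1 gene with a call on the high side, on 1 of its 3 tested probe sets. Probe set 1452483_a_at had 1568, 1284 and 2738 in Gata6-KO replicates 1, 2 and 3, against 944, 905 and 468 in Gata6-WT. It rose 2.37-fold (log2 1.24 ± 0.32, limma adjusted p = 0.034), with replicate 3 the highest Gata6-KO array and the lowest Gata6-WT array. It no longer passed when Gata6-KO replicate 1 or 3 (adjusted p = 0.066 and 0.10) or Gata6-WT replicate 2 or 3 (0.057 and 0.082) was dropped, at log2 differences of 0.92 to 1.39. Within replicates 1 the difference was 0.72 and within replicates 2 and 3 it was 1.5. Probe set 1423760_at had 10295, 9529 and 16414 in Gata6-KO, against 7017, 8612 and 7726 in Gata6-WT. Its groups did not overlap, and its difference of log2 0.59 ± 0.19 did not pass (limma adjusted p = 0.082). The probe set that stands for the gene, 1434376_at, had 9766, 10154 and 15215 in Gata6-KO, against 7675, 10744 and 10441 in Gata6-WT, with overlap (log2 0.27 ± 0.19, limma adjusted p = 0.42). The remaining set, 1443265_at, was too dim to test, at 4.93 to 5.92 in Gata6-KO and 1.23 to 21.3 in Gata6-WT. CD44 transcripts are known to be spliced in many forms, and which forms each probe set covers was not examined. The difference between these probe sets, 1434376_at and 1452483_a_at, in genotype effect, log2 -0.97 (1434376_at minus 1452483_a_at), gave an exact two-sided permutation p of 0.1, the smallest that 3 arrays against 3 allow (0.32 after Benjamini-Hochberg adjustment over the 19 pairs of probe sets of 1 gene compared). CD44 is abundant on monocytes. Of 7 tested markers of monocytes and small peritoneal macrophages 5 rose and 0 fell, among them Ccr2, the receptor of a monocyte chemokine, and F13a1, with a summed signal over 8 markers, most of it from F13a1, of 57018 to 64592 in Gata6-KO and 9009 to 13214 in Gata6-WT; their part in the Cd44 values was not tested. Across all genes 5.61% were higher and 7.46% lower. Ccr2, F13a1 and Cd74 kept their calls with any 1 array left out, whereas Plac8 and H2-Ab1 each kept theirs in 2 of 6 such fits. The count was 3 when Gata6-KO replicate 2 was dropped, or replicate 1 or 3 of Gata6-WT, and also without limma's mean-variance trend. H2-Ab1 was called on 1 of its 3 tested probe sets and Ccr2 on 3 of 4.

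Around CD44, of 8 tested genes for hyaluronan receptors, synthases, hydrolases and binding partners 3 rose and 1 fell (median log2 0.08). Over all genes 5.61% were higher and 7.46% lower. Lyve1, the hyaluronan receptor of lymphatic vessels and of some tissue macrophages, had 25392, 25381 and 45277 in Gata6-KO replicates 1, 2 and 3, against 868, 888 and 1375 in Gata6-WT (29.7-fold, log2 4.89 ± 0.25, limma adjusted p = 1.0e-05). As for the Cd44 probe sets, replicate 3 was the highest Gata6-KO array. Hyal2, a hyaluronidase of the cell surface, had 800 ± 221 in Gata6-KO and 348 ± 91.6 in Gata6-WT (log2 1.16 ± 0.24, limma adjusted p = 0.014, with 0.051 when Gata6-KO replicate 3 was dropped and 0.0504 for Gata6-WT replicate 2). The scavenger receptor gene Stab1 had 2168 ± 552 in Gata6-KO and 1026 ± 434 in Gata6-WT (log2 1.13 ± 0.31, limma adjusted p = 0.048), a call lost without Gata6-KO replicate 2 or 3 or Gata6-WT replicate 1 or 2 (adjusted p = 0.082 to 0.15). The 1 that fell, versican (Vcan), a proteoglycan that binds hyaluronan, had 27.6 ± 16.8 in Gata6-KO and 383 ± 76.4 in Gata6-WT. All 3 Gata6-KO values were below 47.5, so it passed the filter through its wild type signal and had to differ, and its log2 difference moved between -3.92 and -2.29 over the other fits; 2 of its 5 tested probe sets were called lower. The ERM genes Ezr, Rdx and Msn, whose proteins tie CD44 and PSGL-1 to actin, did not pass, at log2 0.06, 0.03 and -0.30.

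**Figure D3:**
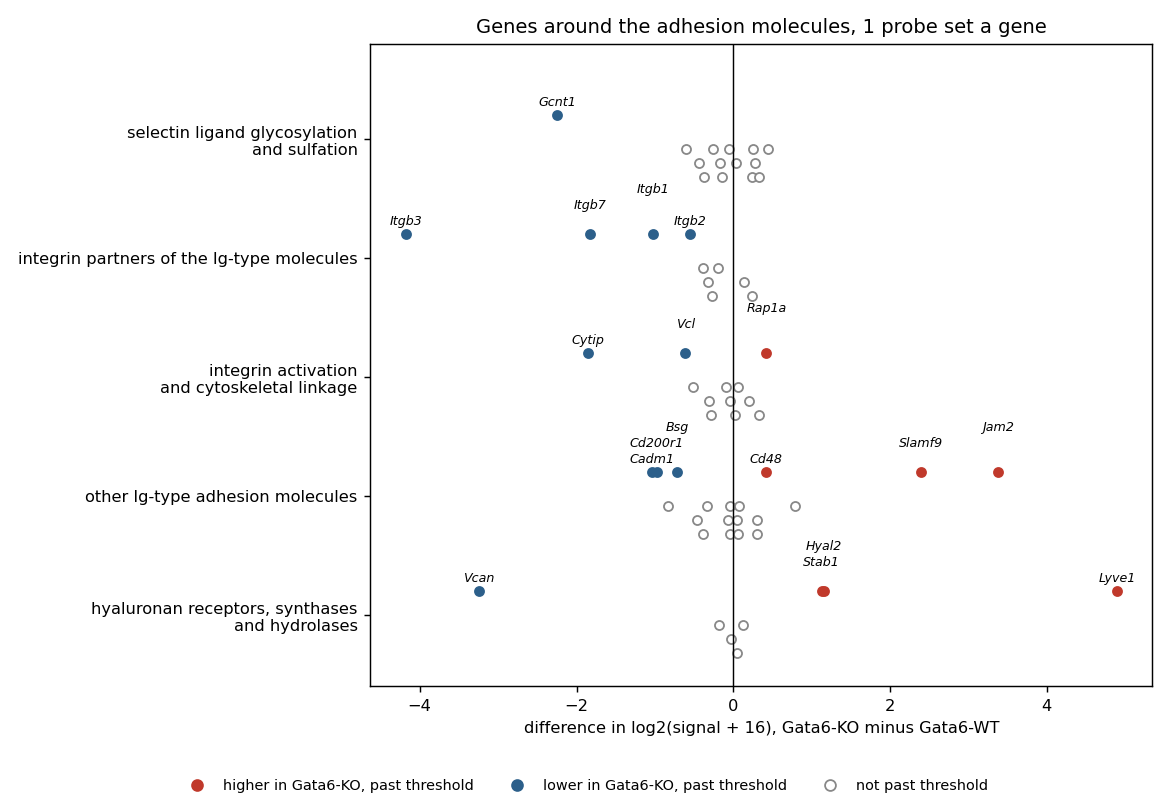
Difference in log2(signal + 16), Gata6-KO minus Gata6-WT, for the tested genes of 5 lists around the adhesion molecules, 1 probe set a gene, with named points past the threshold (red higher, blue lower in Gata6-KO) and open points not past it. All 4 called integrin subunits lie below 0, and in the hyaluronan list Vcan lies below 0 and Lyve1 at 4.89; the places of Itgb3 and Vcan depend on the pseudocount, since their Gata6-KO signals were below 47.5.

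Vcam1 and Pecam1, adhesion molecules best known from endothelium, were dim in these macrophages. The brightest Vcam1 probe set, 1415989_at, had 135, 128 and 107 in Gata6-KO replicates 1, 2 and 3, against 91.3, 105 and 78.1 in Gata6-WT. The groups were just apart, and the difference of log2 0.38 ± 0.25 did not pass (limma adjusted p = 0.38). The other Vcam1 sets were not tested, 1451314_a_at at 6.11 to 32.6 in Gata6-KO and 6.46 to 78.7 in Gata6-WT and 1448162_at at 1.65 to 2.60 and 1.44 to 25.6. Pecam1 had 13.8, 12.2 and 36.0 in Gata6-KO, against 10.9, 7.00 and 15.7 in Gata6-WT, on its 1 probe set, and was not tested. Of 10 endothelial markers 6 were too dim to test, among them Cdh5 and Vwf, and 0 of the other 4 passed; their summed signal was 553 to 674 in Gata6-KO and 564 to 673 in Gata6-WT.

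Other immunoglobulin-type molecules moved in both directions: of 19 tested, 3 rose, 3 fell and 13 did not pass (median log2 -0.04). Jam2, a junctional adhesion molecule, rose most, with 1764, 4317 and 1338 in Gata6-KO replicates 1, 2 and 3, against 245, 328 and 88.2 in Gata6-WT (10.4-fold, log2 3.37 ± 0.49, limma adjusted p = 0.0023), and all 5 of its probe sets were called higher. Slamf9, a receptor of the SLAM family, had 1099 ± 89.4 in Gata6-KO and 195 ± 16.5 in Gata6-WT (log2 2.4 ± 0.15). Cd48, another SLAM family molecule, had log2 0.42 ± 0.12 and lost its call (adjusted p = 0.045) without any 1 of the 6 arrays (0.051 to 0.15). The inhibitory receptor gene Cd200r1 (log2 -0.97 ± 0.17) and basigin, Bsg (-0.71 ± 0.12), fell. Cadm1, a homophilic adhesion molecule, fell with log2 -1.04 ± 0.27 (adjusted p = 0.036, and 0.061 to 0.14 with any 1 array left out). Cd200r1 and Cadm1 were each called on 1 of their 2 tested probe sets. Cd47, the ligand of SIRP-alpha, and the complement receptor gene Vsig4 did not pass, at log2 0.30 and -0.84. Without limma's mean-variance trend, the calls of Icam2, both Alcam probe sets, Cd44, Itgb2, Vcl, Rap1a, Cd48, Stab1 and Hyal2 were lost as well as that of Selplg (adjusted p = 0.051 to 0.16). Among cell type markers, those of Timd4, Cd68, Mertk, Plac8, H2-Ab1, S100a8 and Cd209a were lost too (0.053 to 0.14). Over all lists of genes around the adhesion molecules, 11 of 67 tested genes were lower and 7 higher, against 7.46% and 5.61% of all 12511 genes (median log2 -0.05 beside -0.04), with 87 of 92 listed genes on the array. The 11 include Itgb3 and Vcan, which passed the filter through their wild type signal and had to differ. The lists were chosen with earlier results of these data known, so the shares give a scale only.

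The genes whose profile over the 6 arrays was most like each called adhesion gene were found by the root mean square difference between log2 values centred on each gene's Gata6-WT mean, over 12510 other genes. Since the array profile chose them, a shared order of arrays is built in. Nearest to Selp were Cd81, a tetraspanin (0.23), the protease gene Htra3 (0.30) and Id1, an inhibitor of helix-loop-helix factors (0.31). Cd81 had 624, 2000 and 1139 in Gata6-KO replicates 1, 2 and 3, against 10211, 11522 and 10470 in Gata6-WT. Nearest to Cd24a were the kinase gene Stk26 (0.20), Erc2 (0.28) and Id2 (0.35). Stk26 had 396, 260 and 198 in Gata6-KO, against 3066, 2052 and 2298 in Gata6-WT. Selplg lay nearest to 2 genes of ribosomal proteins, Rpsa (0.02) and Rps19 (0.04), and to the translation factor gene Eif4b (0.05), whose log2 differences were -0.61, -0.61 and -0.58. Icam2 lay nearest to Pcbp2 (0.05), Pwwp3a (0.06) and Man2b2 (0.06), and Alcam to Gm5817 (0.03), Taldo1 (0.03) and Zfp1 (0.07). Genes with a difference near log2 -0.6 are many, so small distances are easier to reach there than at the size of the Selp and Cd24a differences.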

How the data were processed

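Total RNA of sorted macrophages was measured on 1 array per pool, 3 Gata6-KO and 3 Gata6-WT. Per the submitters' processing notes the authors used MAS5 and affy, with no version given. The deposited values are linear intensities, 1 signal per probe set, with a mean of 500 on each array once the highest and lowest 2% were trimmed. MAS5 subtracts mismatch signals within an array, which leaves low values noisy; detection calls were not used here, and the number of arrays limits precision. The labels and notes name no build for these values, and promoter windows are those of GRCm38.p6. Symbols came from the array annotation.

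The 64 control probe sets were left out of 45101. Values were taken to log2(signal + 16) without further normalization, and probe sets with a mean above the 40th percentile (5.99, a signal of 47.5) were then compared by limma 3.58.1 under R 4.3.3 (eBayes with a trend, two-sided, Benjamini-Hochberg over 27022, threshold 0.05). The steps were tested on simulated data. The 4-letter core was added to the promoter search after the 6-letter result was seen. Members and lists were chosen with earlier results of these data known. The naming rule takes every probe set of the 9 genes, any member of the listed genes, and the 3 genes nearest to each called adhesion gene. Alternatives were pseudocounts of 1 and 64, no filter, a 60th percentile filter, quantile normalization, scaling each array to a common median over all probe sets, array weights, no trend, a block for replicate number, leaving out each array, replicates 2 and 3 alone, and averaging a gene's tested probe sets. Markers of T cells (1 tested), mast cells (3) and mesothelial cells (2) gave 0 calls with limma. The mast cell markers Cpa3 (log2 -0.78, limma adjusted p = 0.051) and Cma1 (log2 -1.31, limma adjusted p = 0.083) had groups that did not overlap, while Tpsab1 (log2 -0.40) overlapped. The 7 mast cell markers on the array summed to 352 to 593 in Gata6-KO and 630 to 710 in Gata6-WT. Their part in the values of the 9 genes was not tested. Markers of eosinophils and neutrophils gave 1 lower of 2 (S100a8). Those of dendritic cells gave 1 lower of 3 (Cd209a), with the other tested ones higher and not past the threshold. Figures used matplotlib 3.10.9 in Python 3.11.15.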

Additional observations from a re-analysis of the deposited data

How the results depend on the processing

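All 3 Selp and all 3 Cd24a probe sets kept their calls in each of the 16 other fits, with log2 differences of -3.93 to -2.68 and -3.35 to -2.65. Selplg kept its call in 15 of 16, all but the fit without the trend. Icam2, the Alcam probe set 1426301_at and the Cd44 probe set 1452483_a_at kept theirs in 8 of 16 each and 1437467_at in 14, and no tested probe set of the 9 genes changed sign in any fit. The 11 calls among the 18 probe sets became 6 without the trend and 7 (Gata6-KO replicate 3 left out) to 10 with 1 array left out, and the 2916 calls over all probe sets became 1459 without the trend, 1615 with replicates 2 and 3 alone and 1851 to 2465 with 1 array left out (1886 and 1851 when Gata6-KO replicate 2 or 3 was dropped, 1879 for Gata6-WT replicate 2). Why the counts moved was not tested. Same-numbered arrays deviated together with r = 0.13, 0.07 and 0.07, each best with its own number, which is a hint from the data and not the design; with the replicate block 11 probe sets of the 9 genes and 3076 overall were called. Under this block Alcam 1426300_at and 1437466_at passed and Cd44 1452483_a_at and Icam2 did not. Signs turned for 3 genes that had not passed: Itgal (0.0021 without Gata6-KO replicate 1 and 0.078 with replicates 2 and 3 alone; -0.36 to 0.0021 over arrays left out), Itgam (-0.030 without Gata6-WT replicate 3; -0.030 to 0.41) and Pf4 (0.12 with quantile normalization, and 0.062 and 0.060 without Gata6-KO replicate 2 or Gata6-WT replicate 3; -0.16 to 0.062). Of 1257 single values under an alternative, 1084 were counted as the same. For a refit this meant an unchanged direction and side of the threshold. For an average over a gene's tested probe sets, which has no adjusted p, it meant a value close to the main one relative to its SE. Probe sets near the array background, such as those of Pecam1 and 2 of Vcam1, were not tested.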
